A study of Arabidopsis thaliana with 30 samples.

Results

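The jasmonate oxidases JOX1 (AT3G11180), JOX2 (AT5G05600), JOX3 (AT3G55970) and JOX4 (AT2G38240) and the sulfotransferase ST2A (AT5G07010) were followed through a coronatine time course in leaves of Arabidopsis thaliana. The 5 genes were taken by locus identifier from a table of 27655 genes, and all 5 passed the filter on low values that kept 19005 genes (at least 1 TPM in at least 3 libraries). TPM is a transcript level scaled to the same total in each library and corrected for transcript length, so levels of different genes can be set side by side. Whole leaves of jazD plants in the Col-0 ecotype, 26 days old when sprayed, were profiled by RNA sequencing. Coronatine leaves received a 5 µM spray in water and mock leaves received water. Each treatment was sampled at 0, 1, 3, 12 and 24 h with 3 libraries per group, 30 libraries in all. Every group carried jazD, a line known for defects in multiple JAZ repressor genes, and wild-type leaves were not analysed here. Coronatine is a bacterial toxin that imitates the hormone jasmonoyl-isoleucine.

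Jasmonic acid is turned into the active hormone when it is joined to isoleucine, and it is removed from that path when it is hydroxylated. JOX enzymes are dioxygenases that use 2-oxoglutarate and iron to hydroxylate jasmonic acid, giving 12-hydroxyjasmonate. ST2A transfers a sulfate group from the donor PAPS to the hydroxyl of that product. In leaves this branch is known as a brake on jasmonate responses, and JOX genes are known targets of the pathway they dampen.

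The members differ in gene structure and sequence, and the regions printed here are those that bear on how separately they were measured and on how they start. In RefSeq (assembly TAIR10.1), JOX1 lies on the plus strand of chromosome 3 from 3503917 to 3507113 with 5 exons and 403 codons before its stop. JOX2 lies on the plus strand of chromosome 5 from 1672070 to 1674770, with 3 exons and 371 codons. JOX3, on the minus strand of chromosome 3 from 20766735 to 20769410, has 3 exons and 363 codons. JOX4, on the minus strand of chromosome 2 from 16012535 to 16014991, has 3 exons and 353 codons. ST2A is a single-exon gene of 359 codons on the minus strand of chromosome 5 from 2174668 to 2176446. The coding sequences of JOX1 and JOX2 were the most alike JOX pair, with 79.1% of aligned bases identical, and those of JOX3 and JOX4 the least alike, with 62.5%. No window of 50 coding bases was shared between any JOX pair.

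ST2A has a close copy beside it. ST2B (AT5G07000), a sulfotransferase gene on the same strand from 2171367 to 2173015, lies 1652 bases from ST2A, and 91.6% of their aligned coding bases are identical. The longest run that the coding sequences share is 53 bases, at chr5:2175300-2175352 in ST2A and at chr5:2171991-2172043 in ST2B, and is shown because reads that lie within it belong to either gene.
ST2A and ST2B shared run: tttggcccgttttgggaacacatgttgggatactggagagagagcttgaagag
Of the 1031 windows of 50 coding bases in ST2A, 4 were shared with ST2B, and of the 981 windows of 100 bases, 0 were. How the deposited values divided reads that match both genes is not given in the sources used here, so the levels of ST2A and ST2B carry that uncertainty.

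MYC factors, the activators of jasmonate responses, are known to bind the letters CACGTG, called a G-box, and the variant CACATG. Both were searched on both strands in the 300 bases before each RefSeq gene start, and no stretch can match both because they differ in 1 letter. Of 27438 such windows in the genome, 7.09% held CACGTG, 13.1% held CACATG and 18.9% held either. Shown are the windows of JOX1 and JOX2, which hold a match (in capitals), and that of JOX4, the member with the largest difference at every time from 1 to 24 h, which holds none. They are at chr3:3503617-3503916 (plus strand), chr5:1671770-1672069 (plus strand) and chr2:16014992-16015291 (minus strand).
JOX1: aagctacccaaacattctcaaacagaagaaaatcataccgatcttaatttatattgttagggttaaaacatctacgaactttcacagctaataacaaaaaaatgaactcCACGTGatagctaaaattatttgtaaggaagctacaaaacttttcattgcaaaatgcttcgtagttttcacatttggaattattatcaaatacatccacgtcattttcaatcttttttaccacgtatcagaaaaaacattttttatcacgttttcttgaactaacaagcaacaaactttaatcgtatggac
JOX2: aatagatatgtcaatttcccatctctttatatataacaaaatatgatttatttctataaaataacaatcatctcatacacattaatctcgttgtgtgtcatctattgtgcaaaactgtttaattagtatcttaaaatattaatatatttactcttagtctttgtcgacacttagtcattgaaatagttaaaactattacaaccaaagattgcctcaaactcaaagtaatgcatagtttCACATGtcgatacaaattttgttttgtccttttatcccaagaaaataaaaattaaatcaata
JOX4: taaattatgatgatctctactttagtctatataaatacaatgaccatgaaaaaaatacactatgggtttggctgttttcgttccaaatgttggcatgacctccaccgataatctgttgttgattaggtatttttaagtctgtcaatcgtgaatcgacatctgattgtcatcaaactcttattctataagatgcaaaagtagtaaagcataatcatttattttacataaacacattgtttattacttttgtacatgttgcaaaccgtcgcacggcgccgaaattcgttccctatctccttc
JOX1 held CACGTG from -191 to -186 and JOX2 held CACATG from -62 to -57, counted back from the base before the gene start as -1. The windows of JOX3 and ST2A held neither. A match describes these letters and is no measure of binding.

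Before the results, the libraries were checked. Replicates correlated across genes within each group (Spearman, 0.984 to 0.990), no libraries were identical, and TPM keeps no depth, so the depth of each library is unknown. On the log2(TPM + 1) scale the median of all genes tested was shifted, coronatine minus mock, by 0.02, -0.18, -0.46, -0.54 and -0.24 over the successive times. For that reason a rise or a fall is reported only for genes that limma called in the same direction on deposited TPM and on TPM rescaled with TMM factors (adjusted p under 0.05 on both). The leaf label was checked on the mesophyll genes RBCS1A, CA1 and LHCB1.3, which summed to 45477 to 46329 TPM in coronatine leaves and 46788 to 48527 TPM in mock leaves at 0 h, while 0 of 4 flower genes passed the filter. The library of mock replicate 2 at 1 h stood apart from its group in several jasmonate genes, JOX4 among them, and the 1 h means and folds that it moves by over 1.5 times are given with and without it. Without it 9.07% of 18981 genes tested were called higher and 12.5% lower at 1 h, and 5 of 5 members were called higher.

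All 5 members rose in coronatine leaves at 1, 3, 12 and 24 h, and none was called at 0 h. JOX4 had the largest log2 difference at each of the 4 later times and ranked between 8 and 23 from the top of the 19005 genes. Across all genes tested, the share called higher was 9.52%, 14.2%, 24.3% and 37.2% at 1, 3, 12 and 24 h, and the share called lower was 15.4%, 36%, 41.5% and 43.3%. At 0 h 0 genes were called in either direction (0%) by limma, 1012 genes had an unadjusted p under 0.05, and the authors' deposited table called 0. The median log2 difference of the 5 members was 1.99, 3.98, 4.36 and 4.72 at 1, 3, 12 and 24 h. Fewer cells of a type and less RNA per cell cannot be told apart in whole-leaf RNA, and because the labels do not say whether libraries came from separate plants, p-values measure only the spread between these libraries.

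**Figure D1:**
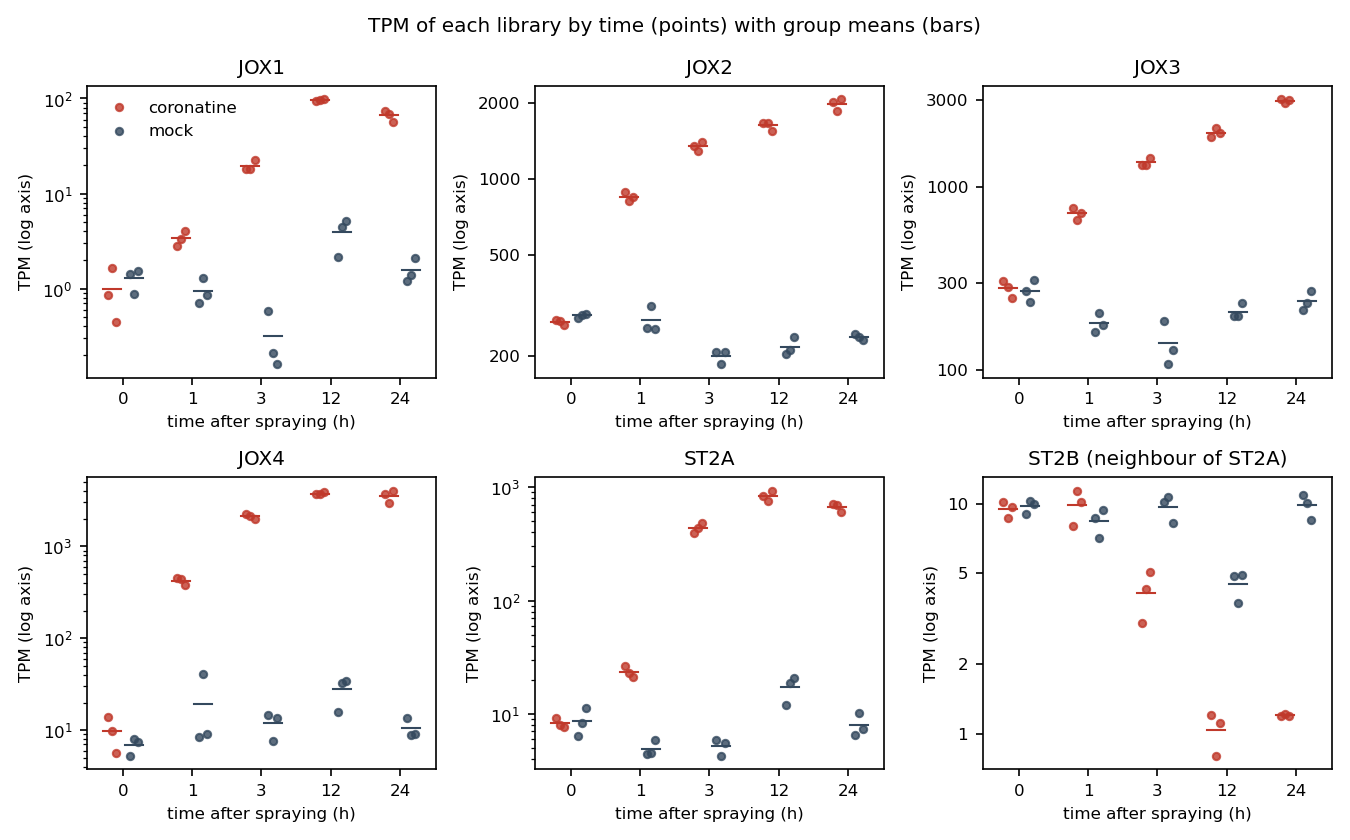
TPM (log axis, each panel with its own range) of JOX1 to JOX4, ST2A and the neighbouring gene ST2B in each of the 30 libraries, by time in h after spraying. Points are libraries, bars are group means, coronatine is drawn in red left of mock in blue; the 5 members separate from mock from 1 h on, while ST2B lies below mock at 3, 12 and 24 h.

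JOX2 had the highest mean of the 5 members in mock leaves at 0, 1, 3 and 12 h, although its range overlapped that of JOX3 at all times but 1 h. JOX2 stood at 278, 276 and 264 TPM at 0 h in the coronatine group, against 284, 292 and 293 TPM in the mock group. The coronatine libraries were all slightly lower at that time, a log2 difference of -0.09 that was not called (limma, adjusted p = 0.967). JOX2 stood at 894, 818 and 852 TPM at 1 h in coronatine leaves, against 259, 316 and 255 TPM in mock leaves. Every coronatine library was already well above every mock library at that time. At 3 h the values were 1349, 1298 and 1406 TPM in coronatine leaves, against 207, 185 and 207 TPM in mock leaves. At 12 h they were 1676, 1673 and 1557 TPM in coronatine leaves, against 203, 212 and 239 TPM in mock leaves. The last time gave 2017, 1864 and 2075 TPM in coronatine leaves, against 245, 237 and 232 TPM in mock leaves. From 1 h on all coronatine libraries lay above all mock libraries, and the coronatine mean was higher at each later time, with the highest at 24 h. Changes of the coronatine-minus-mock difference after 3 h were not called on both scalings. The fold of mean TPM was 3.09, 6.76, 7.51 and 8.35 at 1, 3, 12 and 24 h. By limma the log2 difference was 1.63 ± 0.07 (SE; adjusted p = 1.5e-15) at 1 h and 3.05 ± 0.07 (adjusted p = 1.48e-22) at 24 h.

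JOX3 began at a level like that of JOX2 and rose further. JOX3 stood at 307, 287 and 250 TPM at 0 h in the coronatine group, against 270, 238 and 310 TPM in the mock group, with overlapping ranges. JOX3 stood at 776, 664 and 723 TPM at 1 h in coronatine leaves, against 162, 205 and 177 TPM in mock leaves. At 3 h the levels were 1335, 1333 and 1444 TPM in coronatine leaves, against 186, 108 and 130 TPM in mock leaves. Mock levels at these times lay below those at 0 h, so a lower mock level is part of the fold. JOX3 stood at 1888, 2106 and 1997 TPM at 12 h in coronatine leaves, against 199, 197 and 233 TPM in mock leaves. JOX3 stood at 3036, 2907 and 3000 TPM at 24 h in coronatine leaves, against 214, 234 and 272 TPM in mock leaves. No library overlapped between the groups after 0 h, and the 24 h coronatine libraries were all above the 12 h ones. The fold of mean TPM was 3.98, 9.71, 9.53 and 12.4 at 1, 3, 12 and 24 h. The log2 difference was 1.99 ± 0.14 (SE) at 1 h and 3.64 ± 0.14 at 24 h (limma, adjusted p = 8.36e-12 and 1.87e-18).

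JOX4 was near the bottom of the family at 0 h and had the highest mean of the family in coronatine leaves from 3 h on. JOX4 stood at 13.8, 9.80 and 5.67 TPM at 0 h in the coronatine group, against 5.27, 8.02 and 7.43 TPM in the mock group. JOX4 stood at 448, 438 and 377 TPM at 1 h in coronatine leaves, against 8.37, 41.05 and 9.12 TPM in mock leaves. The mock library at 41.05 TPM is replicate 2, which is far above the other mock libraries yet far below every coronatine library. JOX4 stood at 2256, 2132 and 1975 TPM at 3 h in coronatine leaves, against 14.8, 7.68 and 13.4 TPM in mock leaves. At 12 h the levels were 3671, 3701 and 3879 TPM in coronatine leaves, against 15.9, 32.8 and 34.6 TPM in mock leaves. At 24 h they were 3680, 2948 and 4019 TPM in coronatine leaves, against 13.45, 8.85 and 9.08 TPM in mock leaves. The means at 12 and 24 h were close, and the 24 h libraries spread more widely than those at 12 h. The fold of mean TPM was 21.6, 177, 135 and 339 at 1, 3, 12 and 24 h, and the fold at 1 h was 48.1 without mock replicate 2. The log2 difference at 1 h was 4.73 ± 0.38 (SE; limma, adjusted p = 2.15e-10) and was 5.43 ± 0.29 without mock replicate 2 at 1 h (adjusted p = 1.82e-13). Later it was 7.40 at 3 h, 7.10 at 12 h and 8.29 at 24 h, each ± 0.38 (limma, adjusted p = 5.67e-15, 5.16e-15 and 1.64e-16).

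JOX1 was the least abundant member in every group, and, as in every other member, most of its rise in TPM came after 1 h. By log2 difference this held for JOX1 and ST2A but not for JOX2, JOX3 and JOX4. The latter stood at 1.63, 1.99 and 4.73 at 1 h and at 3.05, 3.64 and 8.29 at 24 h. JOX1 stood at 0.86, 1.64 and 0.45 TPM at 0 h in the coronatine group, against 1.41, 0.88 and 1.55 TPM in the mock group. JOX1 stood at 2.79, 3.35 and 4.08 TPM at 1 h in coronatine leaves, against 0.70, 1.3 and 0.85 TPM in mock leaves. The 1 h groups were apart but low. JOX1 stood at 18.3, 17.98 and 22.6 TPM at 3 h in coronatine leaves, against 0.58, 0.21 and 0.16 TPM in mock leaves. JOX1 stood at 93.6, 95.8 and 98.1 TPM at 12 h in coronatine leaves, against 2.13, 4.47 and 5.12 TPM in mock leaves. The 24 h values were 73.4, 68.6 and 56.6 TPM in coronatine leaves, against 1.19, 1.40 and 2.09 TPM in mock leaves. The 12 h coronatine libraries were all above the 24 h ones, so the highest mean was at 12 h. The fold of mean TPM was 3.59, 61.9, 24.5 and 42.4 at 1, 3, 12 and 24 h. Without mock replicate 1 at 3 h the fold at that time was 106. It is set against mock levels under 1 TPM, and the log2(TPM + 1) scale understates the change there. The log2 difference was 1.18 ± 0.21 (SE), 3.98 ± 0.21, 4.36 ± 0.21 and 4.72 ± 0.21 at 1, 3, 12 and 24 h (limma, adjusted p = 8.64e-05, 1.21e-14, 7.25e-16 and 1.08e-16).

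**Figure D2:**
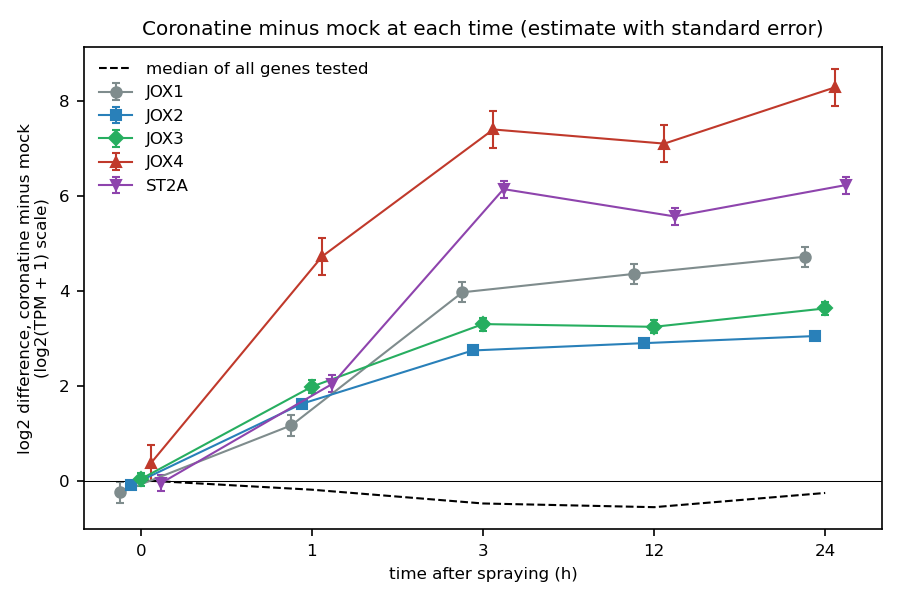
Log2 difference, coronatine minus mock, on the log2(TPM + 1) scale (vertical axis) at each time in h (horizontal axis) for the 5 members, with the standard error as bars and the median of all 19005 genes tested as a dashed line. JOX4 lies highest from 1 h on, and ST2A passes from 2.05 at 1 h to 6.14 at 3 h while the median gene stays at or below 0.02.

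ST2A, which acts on the product of the JOX enzymes, was 4.77-fold higher at 1 h and 83.8-fold higher at 3 h. ST2A stood at 9.27, 7.98 and 7.60 TPM at 0 h in the coronatine group, against 6.43, 8.38 and 11.2 TPM in the mock group. ST2A stood at 26.3, 23.0 and 21.3 TPM at 1 h in coronatine leaves, against 4.46, 4.51 and 5.83 TPM in mock leaves. The 1 h groups did not overlap. ST2A stood at 396, 438 and 481 TPM at 3 h in coronatine leaves, against 5.88, 4.27 and 5.56 TPM in mock leaves. ST2A stood at 841, 757 and 930 TPM at 12 h in coronatine leaves, against 11.9, 18.7 and 20.9 TPM in mock leaves. ST2A stood at 705, 698 and 604 TPM at 24 h in coronatine leaves, against 6.51, 10.2 and 7.43 TPM in mock leaves. All 12 h coronatine libraries lay above all 24 h ones, and the mock libraries were also highest at 12 h. The fold of mean TPM was 49.1 at 12 h and 83.2 at 24 h. The log2 difference was 2.05, 6.14, 5.57 and 6.23 at 1, 3, 12 and 24 h, each ± 0.18 (SE; limma, adjusted p = 6.92e-10, 5.58e-20, 1.15e-19 and 6.85e-21).

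ST2B, the near copy beside ST2A, fell at 3, 12 and 24 h. ST2B stood at 8.03, 11.38 and 10.2 TPM at 1 h in coronatine leaves, against 8.69, 7.08 and 9.43 TPM in mock leaves, with overlapping ranges. ST2B stood at 3.03, 4.24 and 5.03 TPM at 3 h in coronatine leaves, against 10.2, 10.7 and 8.20 TPM in mock leaves. ST2B stood at 1.2, 0.80 and 1.11 TPM at 12 h in coronatine leaves, against 4.85, 3.69 and 4.89 TPM in mock leaves. In mock leaves at 12 h ST2B was lower than at the other mock times, while ST2A was higher. ST2B stood at 1.19, 1.22 and 1.19 TPM at 24 h in coronatine leaves, against 10.9, 10.1 and 8.49 TPM in mock leaves. It fell by 1.08 on the log2 scale at 3 h, by 1.42 at 12 h and by 2.29 at 24 h (limma, adjusted p = 1.3e-07, 6.57e-10 and 4.4e-14), and at 1 h its log2 difference was 0.20 (limma, adjusted p = 0.22). The authors' deposited table called ST2B higher at 1 h (log2 fold change of 0.42, adjusted p = 0.0176). The same coronatine libraries held ST2A at 604 to 930 TPM at 12 and 24 h.

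The members stood at different shares of their own highest coronatine mean at 1 and 3 h, and these shares include the level at 0 h. At 0 h the coronatine group held 13.7% for JOX2, 9.43% for JOX3, 1.03% for JOX1, 0.98% for ST2A and 0.26% for JOX4. JOX2 had reached 43.1% at 1 h and 68.1% at 3 h. JOX3 had reached 24.2% at 1 h and 46.0% at 3 h, and JOX4 11.2% and 56.6% at those times. JOX1 and ST2A had the smallest shares at 1 h, with 3.55% and 2.79% of their highest mean. By 3 h ST2A was at 52.04%, while JOX1 was at 20.5%. The log2 differences at 1 h gave another order, with 4.73 for JOX4, 2.05 for ST2A, 1.99 for JOX3, 1.63 for JOX2 and 1.18 for JOX1. Speed was not tested between genes. The test of the change itself compared the coronatine-minus-mock difference between times. From 1 to 3 h that difference grew in 5 of 5 members, against 11.2% of all genes tested. ST2A had the largest growth, 4.09 ± 0.25 on the log2 scale (SE; limma, adjusted p = 2.49e-12), rank 14 of 19005 genes. For JOX1 the difference grew by 2.80 ± 0.30, for JOX3 by 1.32 ± 0.19 and for JOX2 by 1.12 ± 0.10 (limma, adjusted p = 2.95e-08, 2.88e-06 and 1.41e-09). For JOX4 it grew by 2.67 ± 0.54 (limma, adjusted p = 0.000183), and by 1.96 ± 0.39 without mock replicate 2 at 1 h (adjusted p = 0.000178).

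After 3 h no change of these differences was called on both scalings. From 3 to 12 h 0 of 5 members were called on both scalings, against 60.6% of all genes called in either direction. From 12 to 24 h the count was again 0 of 5, against 40.8% of all genes. ST2A came nearest, with a change of -0.57 ± 0.25 from 3 to 12 h and of 0.66 ± 0.25 from 12 to 24 h on deposited TPM (limma, adjusted p = 0.0472 and 0.0258). On TMM-rescaled TPM these were -0.43 and 0.30 (limma, adjusted p = 0.137 and 0.32). For JOX2 the change from 3 to 12 h was 0.15 on deposited TPM and 0.30 on TMM-rescaled TPM (limma, adjusted p = 0.186 and 0.0185). Between the scalings the sign itself differed for JOX3 from 3 to 12 h (-0.06 on deposited TPM, 0.09 on TMM-rescaled TPM) and for JOX2 from 12 to 24 h (0.15 and -0.22). JOX4 changed by 1.19 from 12 to 24 h, with a 95% interval from 0.06 to 2.31 and an adjusted p of 0.0624 by limma. JOX1, the lowest member, changed by 0.39 from 3 to 12 h (limma, adjusted p = 0.272), and by 1.31 with a pseudocount of 5 in place of 1 (limma, adjusted p = 2.55e-08). Other measures of JOX1 went down over those times. Its fold of mean TPM was 61.9 at 3 h and 24.5 at 12 h. Its log2 fold change in the authors' deposited table was 6.53 and 5.29. The direction of the JOX1 change after 3 h therefore depended on the measure. Between 1 and 24 h, all 5 differences grew, against 37.7% of all genes, by between 1.43 for JOX2 and 4.18 for ST2A.

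**Figure D3:**
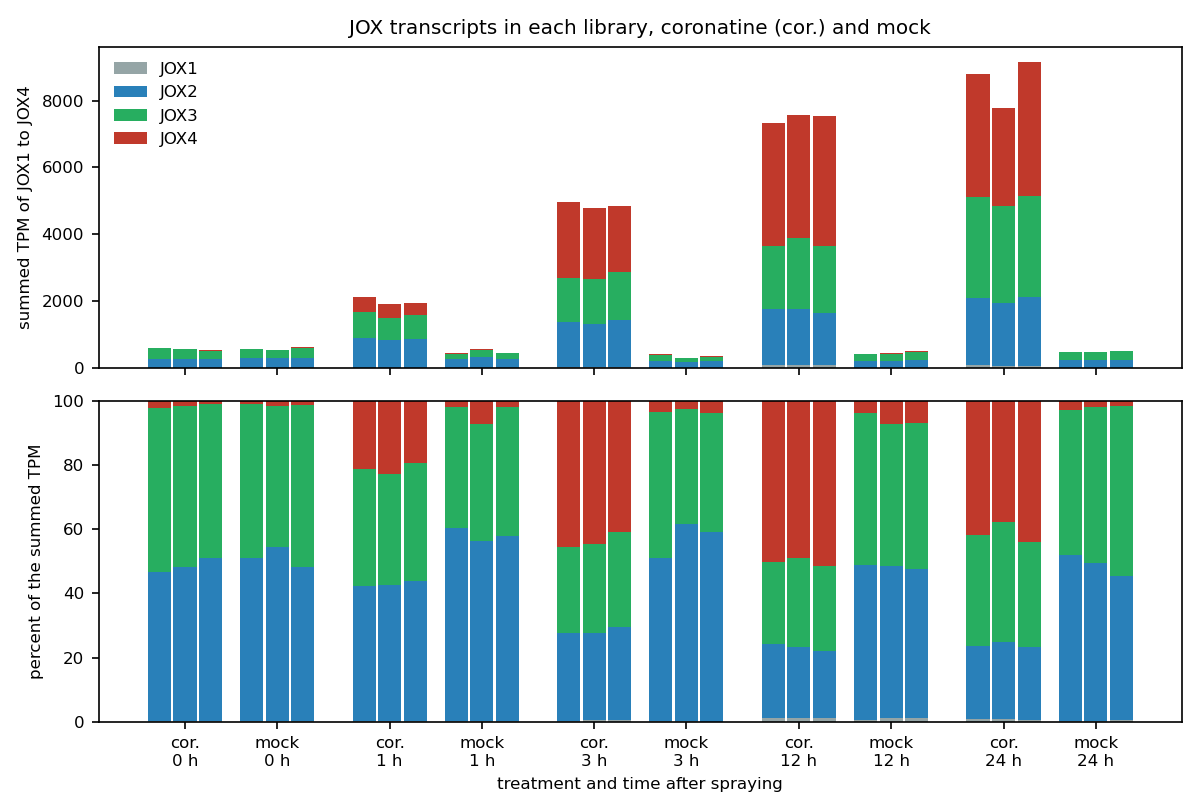
Summed TPM of JOX1 to JOX4 (upper panel) and percent of that sum from each gene (lower panel) in each of the 30 libraries, 1 bar per library, grouped by treatment and time in h. JOX4 makes up 40.7% to 45.5% of the sum in coronatine leaves at 3 h and 2.55% to 3.84% in mock leaves at 3 h.

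The make-up of the JOX transcript pool changed with the treatment. The summed level of the 4 JOX genes was 2000 ± 106 TPM in coronatine leaves and 478 ± 73.9 TPM in mock leaves at 1 h (SD, n = 3 each), and the mock mean was 436 TPM without mock replicate 2. At 24 h it was 8582 ± 709 TPM in coronatine leaves and 490 ± 22.1 TPM in mock leaves, which is 0.858% of all transcripts in coronatine leaves and 0.0490% in mock leaves. In mock leaves JOX2 made up 47.5% to 58.0% of the sum and JOX3 38.0% to 48.9% (range of group means over the 5 times). JOX4 was 21.0% ± 1.74 of the sum in coronatine leaves and 3.77% ± 3.05 in mock leaves at 1 h. The mock libraries gave 1.94%, 7.29% and 2.07%, so their mean was 2.01% without replicate 2. At 12 h it was 50.1% ± 1.33 in coronatine leaves and 5.97% ± 1.91 in mock leaves. At 24 h it was 41.2% ± 3.07 in coronatine leaves and 2.15% ± 0.601 in mock leaves. JOX1 made up at most 1.302% of the sum in any library.

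In the coronatine group at 0 h, JOX3 and JOX2 overlapped at the top, JOX4 and ST2A overlapped behind them and JOX1 was lowest. In coronatine leaves at 1 h JOX2 was highest, then JOX3, JOX4, ST2A and JOX1, with no overlap between neighbours. At 3 h JOX4 was highest, JOX3 and JOX2 overlapped behind it, and ST2A and JOX1 followed. At 12 h the order was JOX4, JOX3, JOX2, ST2A and JOX1, again with no overlap. At 24 h that order held, but the ranges of JOX4 and JOX3 overlapped. In mock leaves JOX2 and JOX3 were always the top pair and JOX1 always the lowest, while JOX4 and ST2A overlapped at 0, 12 and 24 h.

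Mock leaves were not constant, and the members did not move together there. At 1 h against 0 h, 0 of 5 members were called higher and 2 lower, against 11.2% and 7.93% of all genes. JOX3 fell by 0.59 and ST2A by 0.68 on the log2 scale (limma, adjusted p = 0.00262 and 0.00644). At 3 h against 0 h 0 of 5 were called higher and 4 lower, against 23.2% and 20.3% of all genes. JOX3 fell by 0.97, JOX1 by 0.79, ST2A by 0.61 and JOX2 by 0.53 (limma, adjusted p = 1.89e-06, 0.00358, 0.00606 and 9.62e-07). With a pseudocount of 5 the JOX1 difference was -0.24 and no longer called (limma, adjusted p = 0.0621). At 12 h against 0 h 3 of 5 were called higher and 2 lower, against 20.6% and 10.1% of all genes. JOX4 rose by 1.81, JOX1 by 1.06 and ST2A by 0.90, whereas JOX2 fell by 0.41 and JOX3 by 0.37 (limma, adjusted p = 0.000284, 0.000166, 0.000117, 2.59e-05 and 0.021). The genes that rose there were the 3 of low level and those that fell were the 2 of high level. At 24 h against 0 h 0 of 5 were called by limma, with 0.242% of all genes higher and 0.126% lower. At that time 1 of the 5, JOX2 with a log2 difference of -0.28, had an unadjusted p under 0.05. These 4 comparisons share the mock libraries at 0 h. Without mock replicate 3 at 0 h the ST2A difference was -0.50 at 1 h and -0.43 at 3 h (limma, adjusted p = 0.0604 and 0.0612). The 12 h difference of JOX3 was -0.28 without that library, -0.34 without mock replicate 1 at 12 h and -0.33 without mock replicate 2 at 12 h (limma, adjusted p = 0.12, 0.0693 and 0.071).

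Mock replicate 2 at 1 h decided what JOX4 showed in mock leaves at that time. JOX4 differed by 1.02 between mock leaves at 1 and 0 h (limma, adjusted p = 0.0626). It differed by 0.32 without that library (limma, adjusted p = 0.534), by 1.40 without mock replicate 1 at 1 h and by 1.35 without mock replicate 3 at 1 h (limma, adjusted p = 0.0161 and 0.0274). In the same library CYP94B1 stood at 9.42 TPM, against 1.16 and 1.41 TPM in the other mock libraries at 1 h. CYP94C1 stood at 50.5 TPM there, against 10.2 and 13.4 TPM in the others, and CYP94B3 at 7.04 TPM, against 1.07 and 0.62 TPM. Of the touch-inducible genes, CML39 stood at 11.41 TPM in it and at 3.78 and 6.20 TPM in the others, while TCH3 stood at 580 TPM in it and at 575 and 715 TPM in the others. The reason for this library's position was not tested.

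The other genes that handle hydroxylated jasmonates and jasmonate conjugates mostly rose with the members. Of 10 genes listed, 9 passed the filter, all but CYP94B2. Of those 9, 8, 8, 7 and 8 rose at 1, 3, 12 and 24 h, and 0 fell at any of these times. Their median log2 difference was 2.47, 5.56, 5.26 and 4.95 at those times. For comparison, 9.52%, 14.2%, 24.3% and 37.2% of all genes tested rose at those times, and 15.4%, 36%, 41.5% and 43.3% fell. CYP94B3 and CYP94C1 act in the oxidation of the conjugate jasmonoyl-isoleucine. CYP94C1 stood at 315, 298 and 264 TPM in coronatine leaves, against 10.2, 50.5 and 13.4 TPM in mock leaves at 1 h, and rose by 3.85 on the log2 scale (limma, adjusted p = 3.27e-10). Without mock replicate 2 its rise was 4.53 (limma, adjusted p = 1.37e-15), and the count of turnover genes that rose at 1 h was 8 of 9, with a median of 2.73. CYP94B3 averaged 176 TPM in coronatine leaves and 3.01 TPM in mock leaves at 3 h, a rise of 5.56 (limma, adjusted p = 7.36e-12). IAR3 and ILL6 encode amidohydrolases that release jasmonates, hydroxylated ones included, from isoleucine conjugates. IAR3 averaged 440 TPM in coronatine leaves and 86.3 TPM in mock leaves at 1 h, a rise of 2.35 (limma, adjusted p = 6.38e-14).

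Other fates of jasmonic acid and of its hydroxylated form were less alike. JMT, which makes methyl jasmonate, averaged 3748 TPM in coronatine leaves and 13.3 TPM in mock leaves at 24 h, a rise of 8.04 (limma, adjusted p = 9.28e-23). UGT76E1, a glucosyltransferase that acts on 12-hydroxyjasmonate and so shares a substrate with ST2A, rose at 1 and 3 h and was not called on both scalings by limma at 12 or 24 h. At 3 h UGT76E1 stood at 20.9, 20.9 and 18.6 TPM in coronatine leaves, against 3.36, 2.17 and 1.93 TPM in mock leaves, a rise of 2.62 (limma, adjusted p = 3.88e-12). At 12 h it stood at 1.77, 1.02 and 1.29 TPM in coronatine leaves, against 3.65, 2.92 and 3.26 TPM in mock leaves. That difference of -0.87 was past the threshold on deposited TPM (limma, adjusted p = 0.000172) but not on TMM-rescaled TPM (adjusted p = 0.0588). The authors' deposited table called UGT76E1 lower at 12 h (log2 fold change of -0.60, adjusted p = 0.0399). JAR1, which joins jasmonic acid to isoleucine, averaged 26.6 TPM in coronatine leaves and 29.3 TPM in mock leaves at 1 h, a log2 difference of -0.12 (limma, adjusted p = 0.263). JAR1 averaged 23.9 TPM in coronatine leaves and 34.2 TPM in mock leaves at 3 h, and 20.6 TPM in coronatine leaves and 33.97 TPM in mock leaves at 12 h. Those differences of -0.49 and -0.70 passed the threshold on deposited TPM (limma, adjusted p = 2.48e-05 and 1.13e-07) but were 0.05 and -0.01 on TMM-rescaled TPM (adjusted p = 0.595 and 0.887). At 24 h JAR1 rose, with 30.5 TPM in coronatine leaves and 26.4 TPM in mock leaves, by 0.20 on deposited TPM and 0.53 on TMM-rescaled TPM (limma, adjusted p = 0.0427 and 2.56e-06).

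**Figure D4:**
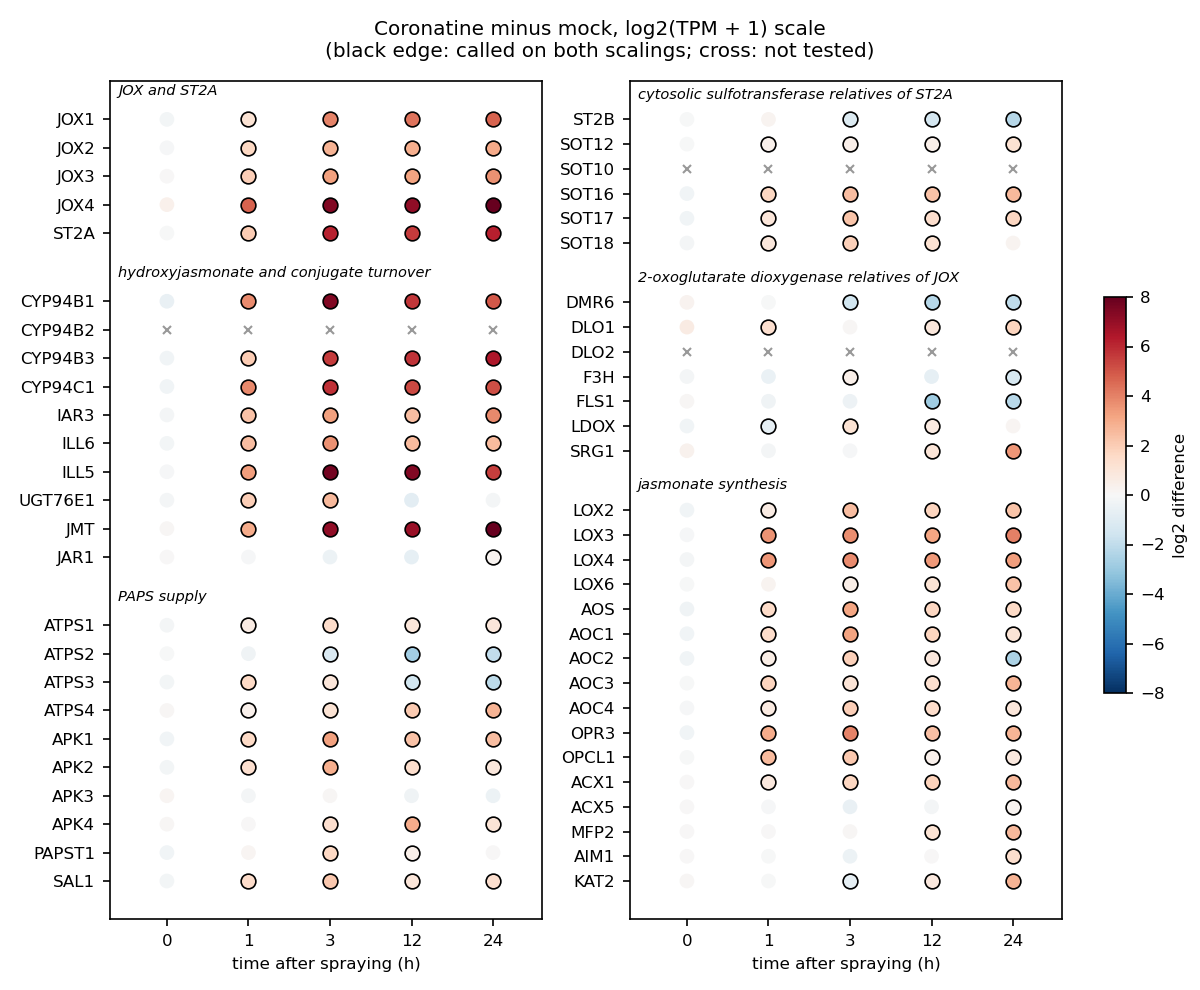
Log2 difference, coronatine minus mock, on the log2(TPM + 1) scale (colour) for the members and the listed genes (rows) at each time in h (columns). A black edge marks genes called on both scalings and a cross marks genes that did not pass the filter; JOX4 (8.29 at 24 h) and JMT (8.04 at 24 h) are among the darkest red, and ST2B, ATPS2 and DMR6 are blue at 3, 12 and 24 h.

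Sulfation by ST2A needs PAPS, which ATP sulfurylases (ATPS) and adenosine phosphosulfate kinases (APK) make. Of 10 genes of PAPS supply, 6, 8, 7 and 6 rose at 1, 3, 12 and 24 h, and 0, 1, 2 and 2 fell. Among all genes tested 9.52%, 14.2%, 24.3% and 37.2% rose at those times, and 15.4%, 36%, 41.5% and 43.3% fell. The median log2 difference of the PAPS genes was 0.53, 1.40, 0.97 and 0.93. APK1 stood at 678, 648 and 611 TPM in coronatine leaves, against 68.0, 61.1 and 66.4 TPM in mock leaves at 3 h, a rise of 3.29 (limma, adjusted p = 1.04e-20). SAL1, a phosphatase that removes the by-product of sulfation, rose by 2.13 at 3 h (limma, adjusted p = 3.11e-19). ATP sulfurylase genes diverged: at 24 h ATPS4 averaged 489 TPM in coronatine leaves and 69.4 TPM in mock leaves, while ATPS2 averaged 22.7 TPM in coronatine leaves and 90.2 TPM in mock leaves (limma, log2 difference of 2.80 with adjusted p = 4.83e-23 for ATPS4, and of -1.95 with adjusted p = 1.46e-18 for ATPS2). ATPS3 rose by 1.59 at 1 h and fell by 2.09 at 24 h (limma, adjusted p = 1.89e-16 and 1.58e-20). APK3 was not called on both scalings by limma at any time, and its sign turned with the scaling. At 3 h its log2 difference was 0.08 on deposited TPM and 0.56 on TMM-rescaled TPM, and at 12 h it was -0.32 and 0.30 (limma, adjusted p = 0.507, 3.17e-05, 0.00833 and 0.00871). The authors' deposited table called APK3 higher at both times (log2 fold change of 0.64 and 0.31, adjusted p = 7.97e-05 and 0.042).

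Among relatives by enzyme class, most of the other sulfotransferases rose, while ST2B fell. Of 6 listed, 5 were tested and SOT10 did not pass the filter. At 1, 3, 12 and 24 h 4, 4, 4 and 3 rose, and 0, 1, 1 and 1 fell, the 1 being ST2B each time. The median log2 difference was 0.88, 1.94, 1.201 and 1.25. These counts of 5 genes stand beside 9.52%, 14.2%, 24.3% and 37.2% of all genes that rose. Beside the falls stand 15.4%, 36%, 41.5% and 43.3% of all genes. SOT16, which sulfates glucosinolate precursors, averaged 1102 TPM in coronatine leaves and 179 TPM in mock leaves at 24 h, a rise of 2.62 (limma, adjusted p = 1.37e-20). SOT12 changed least of those that rose at 3 h, by 0.44 (limma, adjusted p = 3.26e-05). At 3 h the 5 ranged from -1.08 to 2.45, beside 6.14 for ST2A, and differences between genes were not tested.

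Dioxygenases of the same cofactor class as JOX moved in both directions. Of 7 listed, 6 were tested and DLO2 did not pass the filter. At 1, 3, 12 and 24 h 1, 2, 3 and 2 rose and 1, 1, 2 and 3 fell, with a median log2 difference of -0.23, -0.01, 0.00 and -0.59. Both 1 h calls, DLO1 and LDOX, were lost without mock replicate 2 at 1 h, where their log2 differences were 0.89 and -0.62. Beside the shares of all genes called, given above, counts of this size say nothing particular of the class. DMR6, which hydroxylates salicylic acid, stood at 28.9, 28.8 and 35.1 TPM in coronatine leaves, against 113, 80.7 and 81.3 TPM in mock leaves at 3 h, and fell by 1.53 (limma, adjusted p = 8.41e-07). FLS1, a flavonol synthase, averaged 5.67 TPM in coronatine leaves and 47.3 TPM in mock leaves at 12 h, and fell by 2.85 (limma, adjusted p = 1.21e-15). SRG1, a senescence-related gene, had the largest rise of the 6, to 19.0, 15.0 and 15.9 TPM in coronatine leaves, against 0.64, 0.56 and 0.43 TPM in mock leaves at 24 h. Its log2 difference was 3.51 at 24 h and -0.10 at 3 h (limma, adjusted p = 1.64e-15 and 0.604).

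The genes whose group means over the 10 groups followed a member most closely, by Pearson correlation of log2(TPM + 1), are given as a description. These correlations share the strong coronatine-mock split of all groups. JOX1 was followed most closely by AT5G11230 (r = 0.997), with the coronatine-inducible gene CORI3 4th in its list (r = 0.994). JOX2 was followed by ERDL6 and by MYB24, a MYB factor of jasmonate-dependent stamen development (r = 0.993 each). JOX3 was followed by AT5G65380 (r = 0.992) and JOX4 by AT4G13110 (r = 0.997). ST2A was followed by the lectin gene EULS3 (r = 0.995), which also stood 3rd for JOX1 (r = 0.994). Among the members, JOX2 and JOX3 were the most alike pair (r = 0.986), then JOX1 and ST2A (r = 0.980), and JOX1 and JOX2 the least alike (r = 0.913).

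Markers of leaf cell types also changed between coronatine and mock leaves, and the types differed in direction and in time. The epidermal genes ML1 and PDF1 fell in 2 of 2 at 1, 3, 12 and 24 h, with a summed level of 58.5 to 113 TPM in coronatine leaves and 152 to 167 TPM in mock leaves at 1 h. Without mock replicate 2, 1 of 2 was called at 1 h by limma, ML1 alone. At 24 h their sum was 2.82 to 6.22 TPM in coronatine leaves and 160 to 172 TPM in mock leaves. The 3 mesophyll genes were not called on both scalings by limma at 1 or 3 h, but the authors' deposited table called RBCS1A and CA1 higher at 3 h (log2 fold change of 0.50 and 0.52, adjusted p = 5e-07 and 1.59e-10). At 12 h 3 of 3 fell, with a sum of 7591 to 10239 TPM in coronatine leaves and 33628 to 36117 TPM in mock leaves. At 24 h 3 of 3 fell, with a sum of 2596 to 4403 TPM in coronatine leaves and 49396 to 51530 TPM in mock leaves. Guard cell genes fell in 1, 0, 0 and 0 of 4 at 1, 3, 12 and 24 h and rose in 0, 0, 2 and 3 of 4. The gene that fell at 1 h, MYB60, was not called without mock replicate 2. At 24 h the guard cell genes had a sum of 110 to 111 TPM in coronatine leaves and 39.3 to 41.6 TPM in mock leaves. The 4 genes were uneven in the authors' deposited table at 24 h. Their log2 fold changes were 3.71 for KAT1, 1.34 for SLAC1, 1.15 for FAMA and -0.10 for MYB60. Of the phloem genes 1 of 2 fell at 3 h, with a sum of 77.1 to 90.02 TPM in coronatine leaves and 137 to 177 TPM in mock leaves, and 1 of 2 rose at 12 and at 24 h. The authors' deposited table gave the phloem genes opposite signs at 3 h, with a log2 fold change of -0.54 for SUC2 and 0.65 for APL. At 24 h the phloem sum was 142 to 152 TPM in coronatine leaves and 158 to 163 TPM in mock leaves. Of all genes tested, 9.52%, 14.2%, 24.3% and 37.2% rose at 1, 3, 12 and 24 h, and 15.4%, 36%, 41.5% and 43.3% fell. Beside those shares, the guard cell and phloem counts say nothing particular of those cell types. The part of the marker shifts in the members' differences was not tested.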

How the data were processed

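Leaves of 30 libraries, in 10 groups of 3 by the treatment and hour that each title states, were analysed. The authors deposited gene-level TPM, made, per the submitters' processing notes, with RSEM 1.3.3 and DESeq2 3.12 in the toolset and TAIR10 as the build. Which tool made which value, the annotation release and the strand setting are not given in the sources used here. Each TPM column sums to a fixed total, so depth and counting error are unknown. For each time there is also a deposited comparison table with, per the file headers, a base mean (a normalized signal), a log2 fold change with its error, a test statistic (a score) and raw and adjusted p-values, and these tables were used only as an alternative.

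Genes with at least 1 TPM in at least 3 libraries were taken as log2(TPM + 1) and fitted over all 30 libraries, 1 mean per treatment and time, with limma 3.58.1 (R 4.3.3) and its mean-variance trend. P-values are two-sided and adjusted by Benjamini-Hochberg over the 19005 genes of each comparison, with a threshold of 0.05. A call needed the same direction on TPM rescaled with TMM factors (trims of 30% and 5%), which ranged from 0.735 to 1.33. The procedure was tested on simulated data. The members, the lists and the genes named from them (all members in full, any gene of a list, and the 5 genes most correlated with each member) were chosen with earlier results of these data known. Lists covered jasmonate turnover, PAPS supply, sulfotransferases, dioxygenases, jasmonate synthesis and signalling, touch genes and cell type markers.

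Gene models and sequences came from RefSeq on TAIR10.1. All 27996 loci compared overlapped the files' coordinates on the same chromosome and strand, and 47.5% shared a start or end, so promoter windows follow the RefSeq start. Coding sequences were aligned with Biopython 1.88. Titles give the same replicate numbers in each treatment, while the file headers number coronatine and mock libraries apart. Libraries with the same number in the titles showed no clear shared deviation, so no block was used.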

Additional observations from a re-analysis of the deposited data

Results flagged for a closer look

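The difference between coronatine and mock leaves was not of 1 size over time, and for every member it was larger at 3 h and at 24 h than at 1 h by the test of that change (limma, on the log2(TPM + 1) scale, adjusted p under 0.05 on both scalings). From 1 to 3 h it grew by 4.09 for ST2A, 2.80 for JOX1, 2.67 for JOX4, 1.32 for JOX3 and 1.12 for JOX2. From 1 to 24 h it grew by 4.18 for ST2A, 3.56 for JOX4, 3.54 for JOX1, 1.64 for JOX3 and 1.43 for JOX2 (limma, adjusted p = 8.2e-14, 1.93e-06, 8.82e-11, 2.7e-08 and 2.22e-12). At 1, 3 and 24 h all 3 coronatine libraries lay above all 3 mock libraries for each member. Both comparisons share the 1 h libraries. Without mock replicate 2 at 1 h the growth for JOX4 to 24 h was 2.85 (limma, adjusted p = 5.01e-07).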

How the results depend on the processing

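Each member's coronatine difference at 0, 1, 3, 12 and 24 h kept its side of the threshold, and from 1 h on its direction, under every alternative run: pseudocounts of 0.1 and 5, no filter or at least 5 TPM, TMM-rescaled TPM, quantile normalization, no trend, the 6 libraries of a time alone, the authors' deposited table, the replicate block and each library left out. JOX4 ranged from 4.35 to 5.43 at 1 h over the left-out libraries. The changes after 3 h were the ones that moved. With a pseudocount of 5 the change from 3 to 12 h was 1.31 for JOX1, now past the threshold, and -0.16 for ST2A, no longer past it, and the ST2A change from 12 to 24 h was 0.42, no longer past it. In the authors' deposited table the JOX1 log2 fold change was instead lower at 12 h than at 3 h (5.29 and 6.53). On TMM-rescaled TPM the change from 3 to 12 h was 0.30 for JOX2, now past the threshold, and -0.43 for ST2A, and that of ST2A from 12 to 24 h was 0.30, neither past it. With a pseudocount of 5 JOX1 in mock leaves at 3 h against 0 h was -0.24, no longer past it. The cause was not tested. Leaving out 1 library gave ST2A changes from -0.80 to -0.42 (3 to 12 h) and from 0.51 to 0.89 (12 to 24 h). From 12 to 24 h it gave 0.17 to 0.66 for JOX1, 0.31 to 0.48 for JOX3 and 0.99 to 1.53 for JOX4. JOX1 passed without mock replicate 1 at 12 h, JOX3 without mock replicate 3 at 24 h, and JOX4 without mock replicate 1 at 12 or at 24 h. In mock leaves against 0 h it gave -0.86 to -0.50 for ST2A and 0.32 to 1.40 for JOX4 at 1 h, -0.79 to -0.43 for ST2A at 3 h, and -0.47 to -0.28 for JOX3 at 12 h. The count of all genes called higher depended on the scaling: it was 1809, 2693 and 4609 at 1, 3 and 12 h on both scalings together, 3214, 6683 and 8267 on TMM-rescaled TPM, and 3109, 6453 and 8114 in the authors' deposited table. The count called lower was 2922, 6843 and 7886 at those times on both scalings together and on TMM-rescaled TPM, 7919, 12843 and 11700 on deposited TPM, and 2910, 7029 and 8353 in the authors' deposited table. Leaving mock replicate 2 at 1 h out of the listed genes, the JOX pool and the folds of mean TPM, and each other library out of those folds, was chosen after seeing the data. Libraries of the 2 treatments with the same number in the titles correlated by more than 0.1 in 2 of 15 pairs (range -0.25 to 0.12). Of these, 3 of 15 matched best with their own number. The file headers number the treatments apart. These correlations gave no sign of a pairing, but with 3 libraries per group they cannot exclude it. With the replicate block the JOX4 difference at 1 h was 4.73 (limma, adjusted p = 1.12e-09), 5 of 5 members were called from 1 to 24 h, and no call of a member changed. Depth is unknown, so JOX1 and ST2B near 1 TPM carry a counting error that could not be given.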

Other observations

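Jasmonate synthesis genes rose beside the members. Of 16 listed, 11, 12, 14 and 15 rose at 1, 3, 12 and 24 h and 0, 1, 0 and 1 fell, with a median log2 difference of 0.80, 1.95, 1.39 and 2.32. The share of all genes tested that rose also grew, from 9.52% to 14.2%, 24.3% and 37.2%. The share that fell was 15.4%, 36%, 41.5% and 43.3%. LOX3, a plastid lipoxygenase of the first step, averaged 446 TPM in coronatine leaves and 39.4 TPM in mock leaves at 1 h, a log2 difference of 3.62 (limma, adjusted p = 1.59e-13). Mock replicate 2 at 1 h held 66.9 TPM of LOX3, and without it the mock mean was 25.7 TPM and the difference 4.06 (limma, adjusted p = 1.01e-19). AOC2, an allene oxide cyclase, was the gene that fell at 24 h, with 166 TPM in coronatine leaves and 945 TPM in mock leaves, a log2 difference of -2.53 (limma, adjusted p = 3.06e-16). KAT2, a thiolase of peroxisomal beta-oxidation, fell at 3 h (log2 difference of -0.73) and rose at 24 h (2.80; limma, adjusted p = 6.78e-10 and 5.21e-22).

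Of 9 jasmonate signalling genes, 6, 6, 7 and 7 rose at those times and 2, 2, 0 and 1 fell, with a median log2 difference of 0.98, 1.83, 0.99 and 1.13. JAZ8, a repressor gene, averaged 700 TPM in coronatine leaves and 24.1 TPM in mock leaves at 1 h (log2 difference of 4.86; limma, adjusted p = 6.1e-18). COI1, the receptor gene, averaged 5.29 TPM in coronatine leaves and 15.2 TPM in mock leaves at 3 h (log2 difference of -1.36; limma, adjusted p = 3.71e-14). Of 4 touch genes 1, 1, 1 and 2 rose at 1, 3, 12 and 24 h and 0, 3, 1 and 1 fell, with a median log2 difference of 0.01, -1.14, -0.38 and 0.47. Among all genes tested 9.52%, 14.2%, 24.3% and 37.2% rose at those times, and 15.4%, 36%, 41.5% and 43.3% fell. CML39, a calmodulin-like gene of the touch list, rose at all 4 times, with 198, 201 and 196 TPM in coronatine leaves, against 3.78, 11.41 and 6.20 TPM in mock leaves at 1 h. In mock leaves 2 of 4 touch genes were higher at 1 h than at 0 h, against 11.2% of all genes. TCH3 stood at 575, 580 and 715 TPM at 1 h, against 170, 239 and 232 TPM at 0 h.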
